A study of Mus musculus with 6 samples.

Results

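A set of 43 genes that carry out mitosis and cytokinesis was followed in cultured mouse hepatocytes, 43 of the 55487 genes in the count tables. The genes were chosen by name, as regulators and machinery of chromosome segregation and cell division, and all 43 symbols matched an Ensembl gene. This list and the other gene lists below were chosen with earlier results of these data known. Their shares set against all tested genes therefore describe the lists and give no independent support. Hepatocytes make up most of the liver mass; these came from mice that were 6 to 8 weeks old and were either wild type (WT, 3 libraries) or homozygous for AEG-1-C75S (C75S, 3 libraries), in which a palmitoylated cysteine of AEG-1, the product of *Mtdh*, is replaced by serine. Both genotypes were bred from heterozygous parents, RNA was taken 48 h after isolation, and every library carries the treatment label Control. Whether replicate libraries represent different animals is not stated, so p-values measure the spread between libraries, which may be technical.

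Mitosis begins when cyclin A and cyclin B activate the kinase Cdk1, which drives chromosome condensation and spindle assembly. Kinetochores then join chromosomes to spindle microtubules, a checkpoint holds the cell until all are attached, and the anaphase-promoting complex (APC/C) with Cdc20 releases the sister chromatids. The spindle midzone finally directs the small GTPase RhoA to build the contractile ring that divides the cytoplasm. Adult hepatocytes are mostly quiescent and many are polyploid, in part because cytokinesis is left incomplete during liver growth. Many genes of this programme are silenced in resting cells through a promoter element called the cell cycle genes homology region (CHR), bound by the MuvB core that later acts with B-MYB and FOXM1, often beside CCAAT boxes bound by NF-Y.

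Promoter letters are shown for the called members, defined below as those with an edgeR adjusted p-value under 0.05. RefSeq windows of GRCm38.p6, from 250 bases before to 50 bases after the start site, were at hand for 36 of the 43 members, among them 4 of the 5 called ones. The 200 bases before the start are printed 5′ to 3′ on the gene's own strand, which is the minus strand for these 4 genes. Capitals mark matches on either strand to 3 motifs. The CHR was searched as TTTGAA, and also in its variant spelling TTCGAA. The box bound by NF-Y was searched by the letters CCAAT alone. E2F-type sites were searched as TTCCCGC, and also in the other common spelling TTGGCGC. The stretches lie at chr7:135716380-135716579 for *Mki67*, chr11:40733438-40733637 for *Hmmr*, chr9:22389207-22389406 for *Anln* and chr2:113848662-113848861 for *Arhgap11a*.
Mki67: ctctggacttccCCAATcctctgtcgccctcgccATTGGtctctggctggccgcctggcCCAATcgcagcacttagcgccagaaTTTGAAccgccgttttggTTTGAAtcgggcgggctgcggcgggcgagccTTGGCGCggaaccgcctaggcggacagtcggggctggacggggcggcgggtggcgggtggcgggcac
Hmmr: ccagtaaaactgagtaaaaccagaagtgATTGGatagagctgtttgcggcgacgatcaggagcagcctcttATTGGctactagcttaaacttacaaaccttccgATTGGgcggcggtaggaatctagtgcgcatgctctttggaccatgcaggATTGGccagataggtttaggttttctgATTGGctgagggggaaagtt
Anln: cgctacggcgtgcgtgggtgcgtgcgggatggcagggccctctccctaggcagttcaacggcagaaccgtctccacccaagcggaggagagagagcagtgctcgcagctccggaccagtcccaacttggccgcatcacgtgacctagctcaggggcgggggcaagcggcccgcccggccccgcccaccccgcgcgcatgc
Arhgap11a: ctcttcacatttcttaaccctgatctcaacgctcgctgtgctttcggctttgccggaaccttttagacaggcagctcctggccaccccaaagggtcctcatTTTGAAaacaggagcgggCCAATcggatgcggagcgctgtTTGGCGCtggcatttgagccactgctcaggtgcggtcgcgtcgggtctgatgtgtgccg

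The *Mki67* stretch held 2 CHR matches, 3 CCAAT boxes and 1 E2F-type match. In *Arhgap11a* a single CHR match, at bases 99 to 94 before the start, was followed by a CCAAT box and then an E2F-type match. *Hmmr* had 5 CCAAT boxes before the start, and its CHR match lay just after it, at bases 9 to 14 of the transcribed part. *Anln* held no match in the letters shown; its 2 CHR matches lay at bases 22 to 27 and 29 to 34 after the start. Over the 36 members with a window, 30 (83.3%) held CHR letters, 29 (80.6%) a CCAAT box and 27 (75%) both. Among all 27025 genes with a window the shares were 19.4% for CHR letters, 37.9% for CCAAT and 7.70% for both. E2F-type letters were in 7 member windows (19.4%), against 6.93% of all windows. Among the 9679 tested genes with a window the shares were 13.8% for CHR letters, 39.4% for CCAAT, 5.98% for both and 12.5% for E2F-type letters. In 3 of the 36 windows matches of different motifs overlapped. A match describes letters and not a bound site, and the members were listed for their known roles, so the shares are a description of that list.

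Libraries held 16944723 to 21044292 counts on genes, so that 3 counts corresponded to 0.143 to 0.177 counts per 1000000 (CPM). No pair of libraries within a genotype behaved as one library deposited again, since chi-square over its degrees of freedom was at least 4.05. Members were scarce transcripts. Their median level was 0.778 CPM per kb of exon, against 5.19 for all tested genes with a length, and 41 of 42 tested members lay below that value. Hepatocyte markers were abundant: the 12 hepatocyte markers summed to 75757 to 89124 CPM in C75S and 83857 to 92129 CPM in WT.

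Most members were measured at higher levels in C75S. Of the 43, 42 passed the filter on low counts, and 39 of these 42 had a fitted log2 fold change above 0, against 49.1% of all 12741 tested genes. The median log2 fold change was 0.45 over the tested members and -0.003 over all tested genes. By edgeR's quasi-likelihood test, with Benjamini-Hochberg adjustment over all genes, 5 members were called, all higher in C75S: *Mki67*, *Hmmr*, *Anln*, *Arhgap11a* and *Tpx2*. The background is 1.74% of all tested genes called higher (3.11% called in either direction), and the members' share is 11.9%. With p under 0.05 before adjustment stood 19 members, all higher, against 6.91% of all tested genes higher and 6.51% lower. A log2 fold change of at least 0.4 was reached by 26 members, against 5.05% of all tested genes. Every C75S library lay above every WT library for 14 members, against 9.01% of all tested genes, and the reverse held for 0 members, against 8.96%. In bulk RNA, more dividing cells and more of these transcripts per cell cannot be told apart.

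The filter could itself favour such a direction, because a gene can pass through the group in which it is high. Here 39 members exceeded the filter level of 0.481 CPM in all 6 libraries, and 2, *Bub1* and *Ndc80*, did so in all C75S libraries but not in all WT libraries. *Aurkb* passed with 2 libraries of each genotype. Without the filter, all 43 members could be fitted, 40 had a log2 fold change above 0, the median was 0.451, and 7 were called, with *Ccna2* and *Kif20a* joining the 5.

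The difference was uneven over the C75S libraries. Against the WT mean, the median log2 ratio of the tested members was 0.67 in C75S replicate 1, 0.45 in C75S replicate 2 and 0.13 in C75S replicate 3. The WT libraries were at 0.03, -0.03 and 0.06, and over all tested genes the same ratio was within 0.003 of 0 in each library. C75S replicate 3 was thus the nearest of its genotype to WT. It lay above every WT library for 16 of 42 members, whereas C75S replicate 1 did so for 36 and C75S replicate 2 for 34. The matching shares of all tested genes are not given here, so these counts compare the C75S libraries with each other only. C75S replicate 1 was the highest of all 6 libraries for 26 members (17.7% of all tested genes had their highest value there). That library also had the fewest counts on genes, 16944723. Its share of unmapped reads was the highest, at 5.81% against 4.37% to 4.82% in the other libraries. Whether library quality has a part in the members' difference was not tested. C75S replicate 3 was the lowest C75S library for 36 members, against 32.5% of all tested genes.

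**Figure D1:**
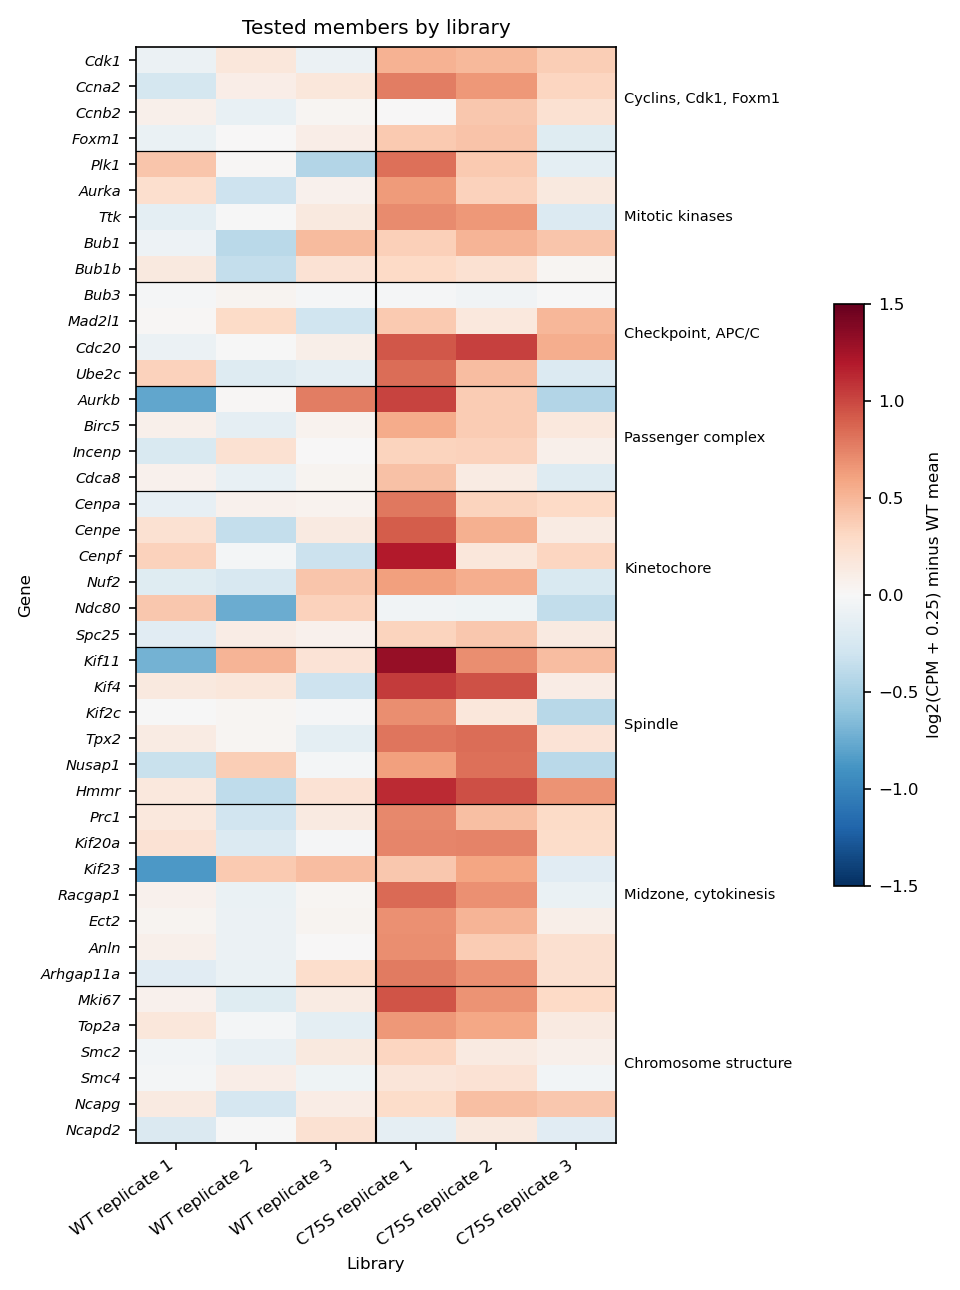
Heat map of the 42 tested members (rows, in 8 role groups) in the 6 libraries (columns); colour gives log2(CPM + 0.25) minus the WT mean, red above and blue below. C75S replicates 1 and 2 are red over most rows, with medians of 0.67 and 0.45, while C75S replicate 3, at 0.13, is paler.

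The calls rested on this small number of libraries. Of the 5 called members, 1 remained called when C75S replicate 1 was dropped and 2 when C75S replicate 2 was dropped. Dropping WT replicate 1, 2 or 3 left 2, 0 and 3 of them. Without C75S replicate 3 the 5 were called with 4 further members, *Ccna2*, *Ect2*, *Kif20a* and *Kif4*. The median log2 fold change was above 0 in each of these fits, between 0.323 without C75S replicate 1 and 0.614 without C75S replicate 3. DESeq2 and limma-voom each called *Mki67* and *Hmmr* alone.

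**Figure D2:**
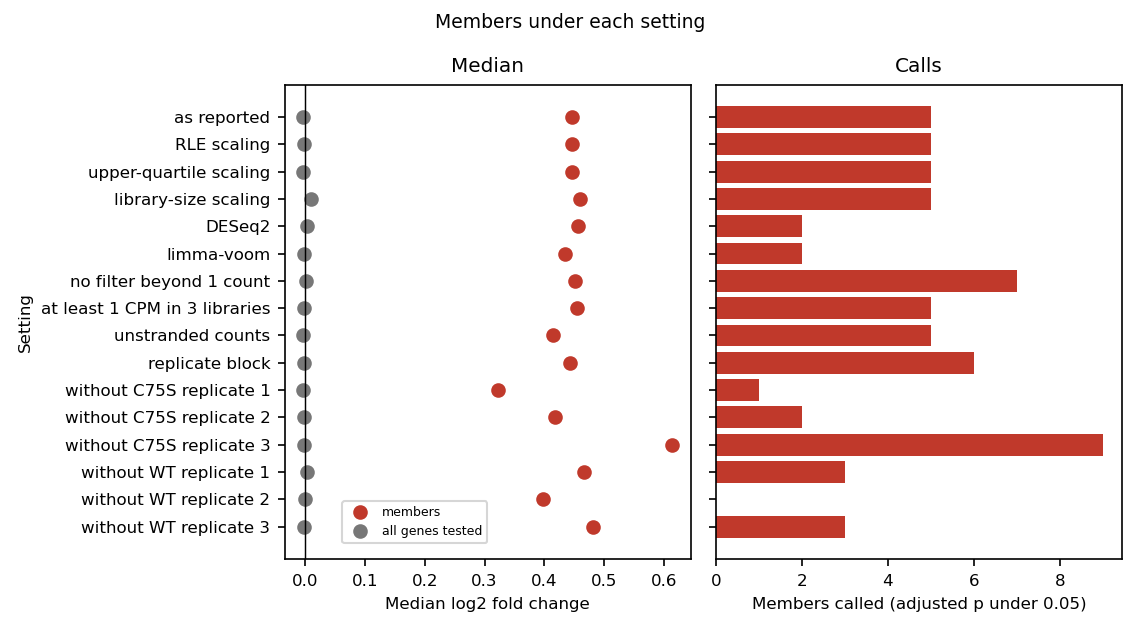
Left, median log2 fold change of the tested members (red) and of all tested genes (grey) under each setting; right, number of members called. The member median stays between 0.323 and 0.614 while the number called ranges from 0 to 9.

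Among genes of chromosome structure, *Mki67* (ENSMUSG00000031004, chromosome 7, 135689784 to 135716361 of GRCm38) encodes the protein that coats mitotic chromosomes and keeps them apart, and is the common marker of proliferation. It was measured at 21.7, 17.9 and 13.8 CPM in the C75S libraries and 11.6, 9.79 and 12.2 CPM in the WT libraries, in order of replicate. All C75S libraries were above all WT libraries, with C75S replicate 1 the highest. *Mki67* rose 1.59-fold, a log2 fold change of 0.67 (SE 0.14, adjusted p by edgeR = 0.00973), and lost its call without WT replicate 1 (0.0502) or WT replicate 2 (0.0706). *Top2a*, the topoisomerase that untangles sister chromatids, was at 7.4, 7.06 and 5.13 CPM in the C75S libraries and 5.27, 4.53 and 4.17 CPM in the WT libraries. C75S replicate 3 was just below WT replicate 1, and the log2 fold change of 0.49 (SE 0.17) was not called (adjusted p by edgeR = 0.153).

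Condensin is the ring complex that compacts mitotic chromosomes, and none of its 4 members was called. *Smc4*, one of its ATPase subunits and the most abundant gene of this group per length, was at 22.8, 23.3 and 19.6 CPM in the C75S libraries and 19.6, 21.6 and 19.1 CPM in the WT libraries. The genotypes overlapped and the log2 fold change was 0.13 (SE 0.09). Its partner *Smc2* was at 13.3 ± 1.24 CPM in C75S against 11.7 ± 1.11 in WT (SD, n = 3 each), with a fitted log2 difference of 0.18 (SE 0.11). The condensin I subunit *Ncapd2* was at 10.4 ± 1.29 CPM in C75S against 10.8 ± 1.7 in WT, with a log2 fold change of -0.05 (SE 0.13). *Ncapg*, another condensin I subunit and the scarcest of the group, was at 1.43, 1.66 and 1.6 CPM in the C75S libraries and 1.28, 0.925 and 1.26 CPM in the WT libraries. Its C75S libraries were all above its WT libraries, but on 19 to 35 counts a library, and the log2 fold change of 0.44 (SE 0.32) was not called (adjusted p by edgeR = 0.612).

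Spindle genes held 2 of the 5 calls and all 6 of them had log2 fold changes above 0, with a median of 0.75. *Hmmr* (ENSMUSG00000020330, chromosome 11, 40701395 to 40733422), a microtubule-associated protein of the spindle, was at 4.3, 3.84 and 3.1 CPM in the C75S libraries and 2.09, 1.36 and 2.18 CPM in the WT libraries. The lowest C75S library exceeded the highest WT library. *Hmmr* rose 2.0-fold, a log2 fold change of 0.99 (SE 0.24, adjusted p by edgeR = 0.0205), the largest among the tested members, and lost its call when C75S replicate 1 (0.116), C75S replicate 2 (0.0657) or WT replicate 2 (0.132) was left out. *Tpx2* (ENSMUSG00000027469, chromosome 2, 152847964 to 152895321), which activates Aurora A and nucleates spindle microtubules, was at 7.74, 7.92 and 5.02 CPM in the C75S libraries and 4.74, 4.43 and 3.88 CPM in the WT libraries. C75S replicate 3 stood close to WT replicate 1, well under the other C75S libraries. *Tpx2* rose 1.58-fold, a log2 fold change of 0.66 (SE 0.18, adjusted p by edgeR = 0.0404), and this was the least stable of the 5 calls, lost in 7 of 15 alternative fits, among them all but 1 of those that left out a library.

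None of the 3 spindle motors was called. *Kif11*, the kinesin that pushes spindle poles apart, was at 3.84, 2.42 and 2.03 CPM in the C75S libraries and 0.759, 2.09 and 1.65 CPM in the WT libraries. WT replicate 1 was low and WT replicate 2 stood above C75S replicate 3, so the genotypes overlapped. The log2 fold change was 0.87 (SE 0.32), not called (adjusted p by edgeR = 0.184). *Kif4*, a chromosome-bound kinesin, was at 3.5, 3.27 and 1.71 CPM in the C75S libraries and 1.75, 1.8 and 1.21 CPM in the WT libraries. C75S replicate 3 lay within the WT range, and the log2 fold change of 0.83 (SE 0.29) was not called (adjusted p by edgeR = 0.146). The microtubule-depolymerising kinesin *Kif2c*, with 1.87 ± 0.789 CPM in C75S against 1.57 ± 0.0289 in WT, and the microtubule bundler *Nusap1*, with 1.64 ± 0.746 CPM in C75S against 1.18 ± 0.356 in WT (SD, n = 3 each), overlapped between genotypes at log2 fold changes of 0.24 (SE 0.32) and 0.49 (SE 0.37).

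**Figure D3:**
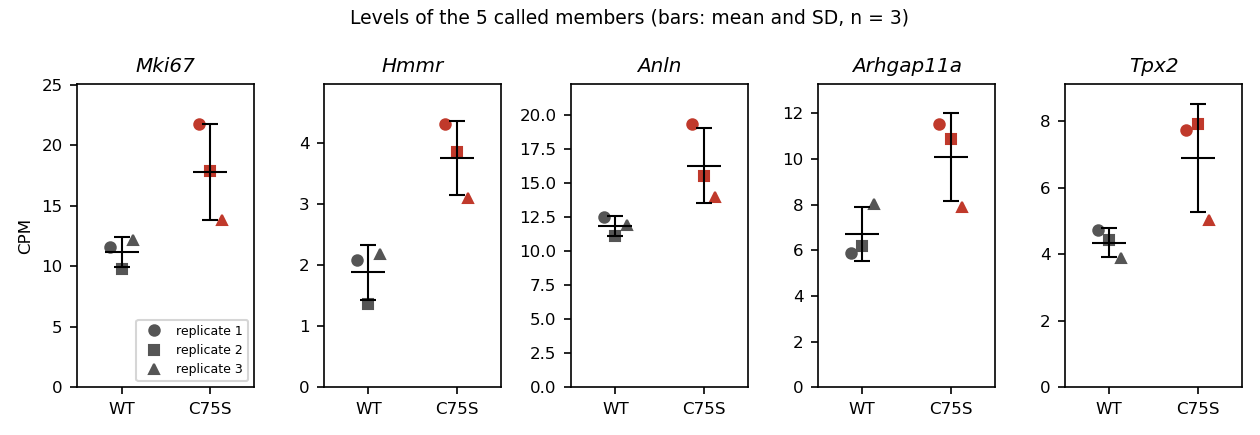
CPM of the 5 called members in each library (symbols give the replicate), with mean and SD of 3 libraries per genotype; each vertical axis starts at 0. C75S replicate 3 (red triangle) is the lowest C75S library in all 5 panels, and in *Arhgap11a* it lies under WT replicate 3.

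Genes of the midzone and of cytokinesis gave the other 2 calls outside the spindle and chromosome groups, and all 7 of them had log2 fold changes above 0, with a median of 0.50. *Anln* (ENSMUSG00000036777, chromosome 9, 22332012 to 22389188), the scaffold anillin that links RhoA, actin and myosin in the contractile ring, was at 19.3, 15.5 and 14.0 CPM in the C75S libraries and 12.5, 11.1 and 11.9 CPM in the WT libraries. The genotypes did not overlap. *Anln* rose 1.37-fold, a log2 fold change of 0.45 (SE 0.12, adjusted p by edgeR = 0.0292), and lost its call in 5 of 15 alternatives, the highest adjusted p-value being 0.26 without C75S replicate 1. *Arhgap11a* (ENSMUSG00000041219, chromosome 2, 113831492 to 113848661), a GTPase-activating protein for RhoA, was at 11.5, 10.9 and 7.91 CPM in the C75S libraries and 5.88, 6.18 and 8.05 CPM in the WT libraries. Here the groups overlapped, since C75S replicate 3 was below WT replicate 3. *Arhgap11a* rose 1.51-fold, a log2 fold change of 0.59 (SE 0.16, adjusted p by edgeR = 0.0348), and lost its call in 6 of 15 alternatives, with 0.196 the highest adjusted p-value, again without C75S replicate 1.

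The activator of RhoA at the midzone, *Ect2*, was at 10.3, 9.05 and 6.68 CPM in the C75S libraries and 6.5, 5.89 and 6.5 CPM in the WT libraries. All C75S libraries were above WT, C75S replicate 3 by a small margin, and the log2 fold change of 0.46 (SE 0.16) was not called (adjusted p by edgeR = 0.131). *Prc1*, which cross-links the antiparallel microtubules of the midzone, was at 8.15, 6.68 and 5.93 CPM in the C75S libraries and 5.41, 3.9 and 5.33 CPM in the WT libraries. It did not overlap either, at a log2 fold change of 0.50 (SE 0.17, adjusted p by edgeR = 0.136). *Kif20a*, the kinesin that carries the chromosomal passenger complex to the midzone, was at 7.0, 7.06 and 5.02 CPM in the C75S libraries and 4.84, 3.55 and 4.07 CPM in the WT libraries. Its lowest C75S value was above its highest WT value, and with a log2 fold change of 0.61 (SE 0.18) it stood just outside the threshold (adjusted p by edgeR = 0.0629). *Cdc23* shares exon sequence with it on the opposite strand, and with unstranded counts the log2 fold change of *Kif20a* was 0.16 (adjusted p by edgeR = 0.83).

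Centralspindlin, the complex of *Racgap1* and *Kif23* that recruits Ect2, was measured with less precision. *Racgap1* was at 3.44, 3.03 and 1.66 CPM in the C75S libraries and 1.9, 1.66 and 1.84 CPM in the WT libraries. C75S replicate 3 and WT replicate 2 were the lowest, and the log2 fold change was 0.59 (SE 0.28, adjusted p by edgeR = 0.347). *Kif23* was at 1.72, 1.99 and 1.07 CPM in the C75S libraries and 0.569, 1.7 and 1.79 CPM in the WT libraries. WT replicate 3 stood above C75S replicate 1, and C75S replicate 3 below WT replicate 2, and its log2 fold change of 0.24 (SE 0.37) was not called (adjusted p by edgeR = 0.847).

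Among the cyclins and their kinase, *Ccna2*, the cyclin that spans S phase and entry into mitosis, was at 7.34, 6.78 and 5.34 CPM in the C75S libraries and 3.46, 4.53 and 4.75 CPM in the WT libraries. Every C75S library was above every WT library. The log2 fold change of 0.61 (SE 0.18) missed the threshold (adjusted p by edgeR = 0.0582) and was called without the filter on low counts (0.0254) and without C75S replicate 3 (0.0303). *Cdk1*, the central kinase of mitosis, was at 4.47, 4.36 and 4.01 CPM in the C75S libraries and 2.85, 3.46 and 2.86 CPM in the WT libraries. The C75S values were close together and all above WT, with a log2 fold change of 0.49 (SE 0.20) that was not called (adjusted p by edgeR = 0.24).

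The B cyclins gave little information. *Ccnb1* was the single member below the filter, with 9, 13 and 7 counts in the C75S libraries and 2, 9 and 4 in the WT libraries. Its counts are uncertain for a further reason: 4 annotated copies are 96.6% to 99.2% identical to its longest transcript over 383 to 1294 bases, and reads that map to several places were not counted to any gene. *Ccnb2* was at 1.97 ± 0.306 CPM in C75S against 1.65 ± 0.128 in WT (SD, n = 3 each), with a fitted log2 difference of 0.26 (SE 0.28). *Foxm1*, the transcription factor of the G2 and M programme, was at 3.01 ± 0.712 CPM in C75S against 2.52 ± 0.195 in WT, with a log2 fold change of 0.26 (SE 0.24); neither was called (adjusted p by edgeR = 0.763 and 0.702).

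None of the 5 mitotic kinases of the entry and checkpoint pathways was called, although all 5 had log2 fold changes above 0, with a median of 0.40. *Aurka*, which matures centrosomes, was the most abundant per length and was at 4.19, 3.37 and 2.89 CPM in the C75S libraries and 3.13, 2.04 and 2.71 CPM in the WT libraries. The genotypes overlapped, at a log2 fold change of 0.40 (SE 0.23, adjusted p by edgeR = 0.488). *Ttk*, the kinase that starts the spindle checkpoint, was at 1.84, 1.75 and 0.855 CPM in the C75S libraries and 0.901, 1.02 and 1.16 CPM in the WT libraries. C75S replicate 3 was the lowest library of all for this gene, and the log2 fold change was 0.53 (SE 0.35). *Bub1*, a checkpoint kinase at the kinetochore and the scarcest of the group, was at 0.918, 1.04 and 0.962 CPM in the C75S libraries and 0.617, 0.438 and 1.02 CPM in the WT libraries, on 9 to 22 counts a library. WT replicate 3 was within the C75S range, and the log2 fold change of 0.50 (SE 0.41) had an edgeR adjusted p of 0.666. *Plk1*, with 2.64 ± 0.952 CPM in C75S against 1.99 ± 0.650 in WT, and *Bub1b*, with 3.18 ± 0.314 CPM in C75S against 2.81 ± 0.624 in WT (SD, n = 3 each), had log2 fold changes of 0.40 (SE 0.29) and 0.18 (SE 0.23).

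Checkpoint and APC/C genes had 0 of 4 called and estimates of very different size. *Bub3*, the adaptor that docks Bub1 and BubR1 at kinetochores, was the most abundant member per length, and at 52.5, 51.2 and 53.1 CPM in the C75S libraries and 52.4, 54.6 and 52.7 CPM in the WT libraries it made up 21% of the summed CPM of all members. All libraries lay close together and the log2 fold change was -0.03 (SE 0.06). *Cdc20*, the activator of the APC/C that the checkpoint restrains, was at 2.47, 2.65 and 1.82 CPM in the C75S libraries and 1.09, 1.17 and 1.26 CPM in the WT libraries. The groups did not overlap, yet the log2 fold change of 0.98 (SE 0.30), the second largest among members, was not called (adjusted p by edgeR = 0.0796) on 23 to 56 counts a library. *Mad2l1*, the checkpoint protein that binds Cdc20, was at 9.75, 8.2 and 10.5 CPM in the C75S libraries and 7.45, 9.01 and 5.91 CPM in the WT libraries. Its highest library was C75S replicate 3, unlike in any other tested member, and WT replicate 2 was above C75S replicate 2; the log2 fold change was 0.34 (SE 0.15, adjusted p by edgeR = 0.307). *Ube2c*, the ubiquitin-conjugating enzyme of the APC/C, was at 4.1 ± 1.47 CPM in C75S against 3.03 ± 0.705 in WT (SD, n = 3 each), with a fitted log2 difference of 0.43 (SE 0.25).

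The chromosomal passenger complex, which corrects faulty attachments and then moves to the midzone, had 0 of 4 members called and a median log2 fold change of 0.32. Its scaffold *Incenp* was the most abundant of the 4 per length, at 11.2, 11.2 and 9.3 CPM in the C75S libraries and 7.45, 10.3 and 8.82 CPM in the WT libraries. WT replicate 2 was inside the C75S range and the log2 fold change was 0.26 (SE 0.14, adjusted p by edgeR = 0.434). *Birc5*, which encodes survivin, was at 3.61, 3.18 and 2.67 CPM in the C75S libraries and 2.51, 2.14 and 2.47 CPM in the WT libraries. The libraries did not overlap, and the log2 fold change of 0.41 (SE 0.23) was not called (adjusted p by edgeR = 0.472). The catalytic subunit *Aurkb* was at 1.61, 0.948 and 0.428 CPM in the C75S libraries and 0.285, 0.682 and 1.31 CPM in the WT libraries, on 6 to 28 counts a library. Both genotypes ranged widely, and the log2 fold change of 0.38 (SE 0.50) was smaller than its SE. *Cdca8*, which encodes borealin, was at 5.41 ± 1.25 CPM in C75S against 4.88 ± 0.350 in WT (SD, n = 3 each), with a fitted log2 difference of 0.14 (SE 0.18).

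At the kinetochore and centromere 0 of 6 members were called, and 5 of 6 had log2 fold changes above 0. *Cenpa*, the histone H3 variant that marks centromeres, was at 3.79, 2.7 and 2.62 CPM in the C75S libraries and 1.9, 2.19 and 2.18 CPM in the WT libraries. It did not overlap between genotypes, at a log2 fold change of 0.53 (SE 0.24, adjusted p by edgeR = 0.325). *Cenpe*, a kinetochore kinesin, was at 5.16, 3.93 and 2.89 CPM in the C75S libraries and 3.13, 2.0 and 2.91 CPM in the WT libraries. C75S replicate 3 was within the WT range and the log2 fold change was 0.57 (SE 0.24, adjusted p by edgeR = 0.258). *Cenpf*, a large protein of the outer kinetochore, was at 4.19, 1.94 and 2.19 CPM in the C75S libraries and 2.23, 1.66 and 1.31 CPM in the WT libraries. C75S replicate 1 alone stood clear of WT, and the log2 fold change was 0.66 (SE 0.30, adjusted p by edgeR = 0.328).

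The Ndc80 complex grips the microtubule end, and 3 of its subunits are members; their estimates differed in sign. *Spc25* was the most abundant per length of this group, at 5.74, 6.02 and 4.97 CPM in the C75S libraries and 3.98, 4.87 and 4.7 CPM in the WT libraries. The groups did not overlap, at a log2 fold change of 0.31 (SE 0.17, adjusted p by edgeR = 0.464). *Ndc80* was at 0.860, 0.853 and 0.641 CPM in the C75S libraries and 1.28, 0.438 and 1.21 CPM in the WT libraries, on 9 to 27 counts a library. WT libraries gave both its highest and its lowest value, and its log2 fold change of -0.31 (SE 0.42) was the most negative among the members (adjusted p by edgeR = 0.822). *Nuf2* was at 1.01 ± 0.369 CPM in C75S against 0.756 ± 0.270 in WT (SD, n = 3 each), with a fitted log2 difference of 0.42 (SE 0.41). Neither *Ndc80* nor *Nuf2* was called.

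**Figure D4:**
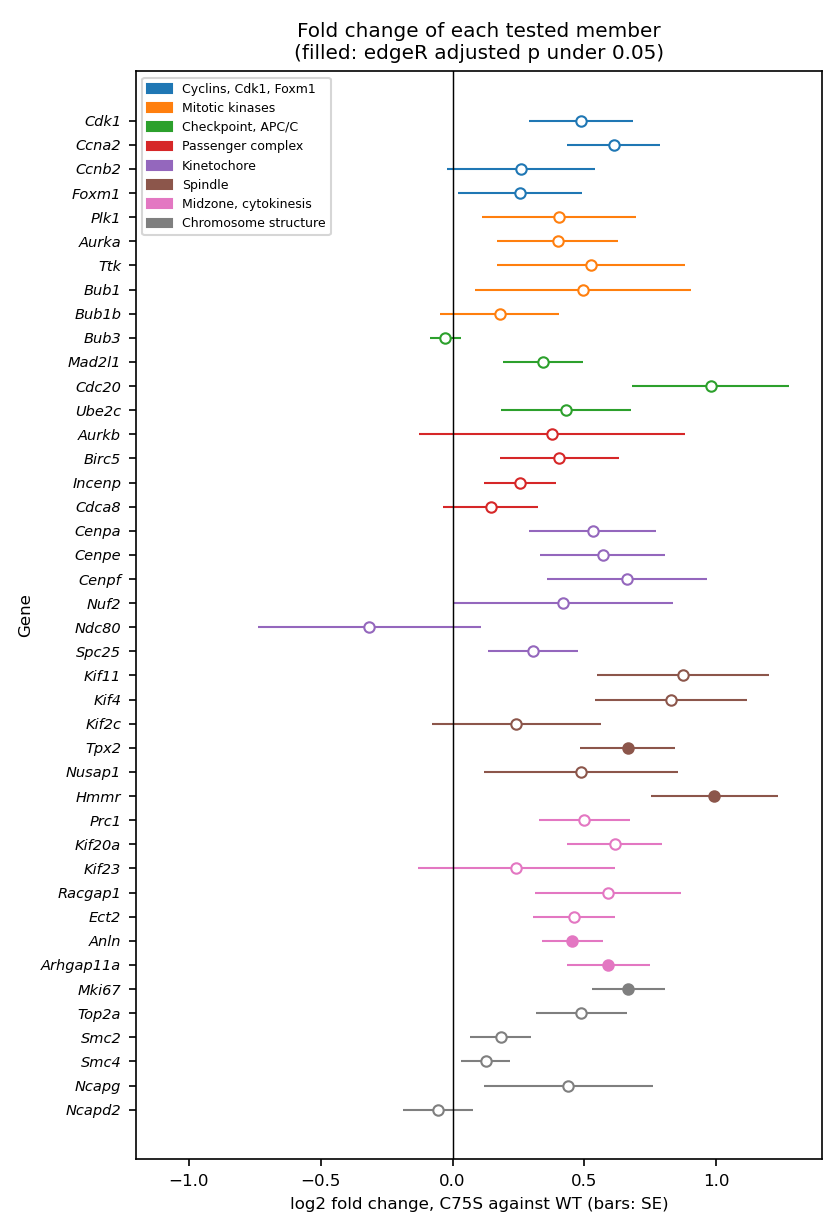
Log2 fold change of C75S against WT for the 42 tested members, in 8 role groups (colours), with the SE as bars; filled points have an edgeR adjusted p-value under 0.05. The 5 filled points lie between 0.45 and 0.99, and 3 members lie below 0.

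The 5 most abundant members had small fold changes. Per kb of exon the members spanned a 55.5-fold range, from *Bub3* (7.53 CPM per kb) to *Ndc80* (0.136 CPM per kb) among tested members. After *Bub3* the next in level were *Smc4* (4.03), *Smc2* (2.29), *Incenp* (2.24) and *Ncapd2* (1.69). These 5 had a median log2 fold change of 0.13, against 0.49 for the other 37, a division made after the values were seen. *Arhgap11a*, *Anln*, *Mki67* and *Tpx2* lay between 1.2 and 1.58 CPM per kb, and *Hmmr* at 0.518. The median SE of the log2 fold change was 0.23 for members and 0.09 for all tested genes. In 10 tested members no library reached 50 counts.

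**Figure D5:**
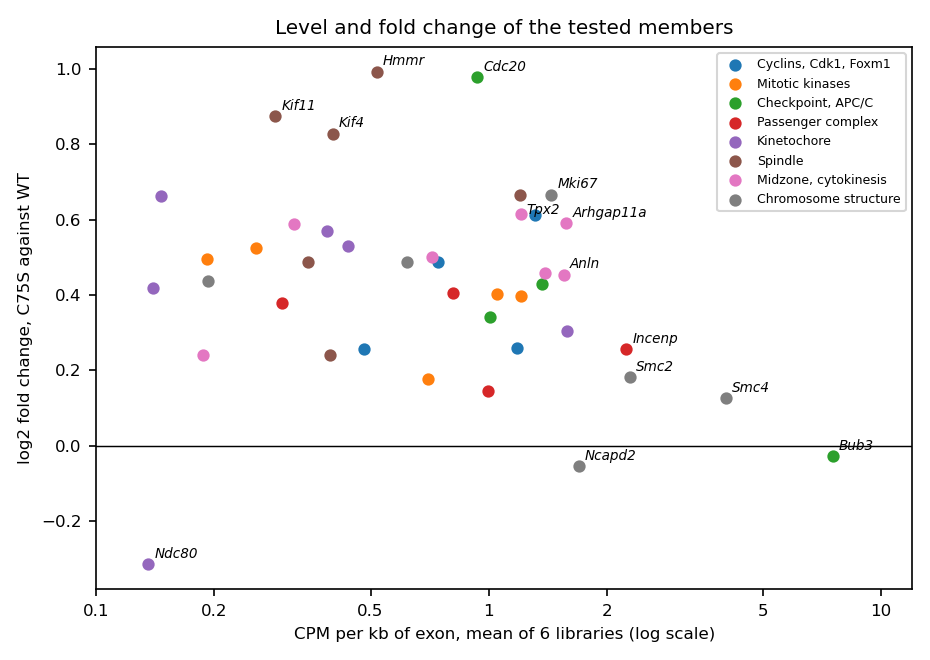
Level of each tested member (horizontal, CPM per kb of exon, log scale, mean of 6 libraries) and its log2 fold change (vertical), coloured by role group. The 5 most abundant members lie between -0.05 and 0.26, and the larger fold changes are those of members at lower levels.

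The wider mitotic machinery differed less in its median than the 43 members, a contrast that was not tested. Of 102 further genes of mitosis, among them subunits of the APC/C, cohesin, the constitutive centromere and the MuvB core, 92 were tested. The median log2 fold change was 0.10, and 65 were above 0, against 49.1% of all tested genes. Only *Cdca3* was called, higher in C75S (1.09%, against 1.74% of all tested genes called higher). Every C75S library lay above every WT library for 12 of the 92, against 9.01% of all tested genes. The reverse held for 2, against 8.96%. *Cdca3*, an adaptor that helps degrade the mitosis inhibitor Wee1, was at 5.39, 5.31 and 3.74 CPM in the C75S libraries and 2.75, 2.39 and 3.15 CPM in the WT libraries. All C75S libraries were above all WT libraries, and *Cdca3* rose with a log2 fold change of 0.80 (SE 0.21, adjusted p by edgeR = 0.0312). *Kif18b*, a kinesin that shortens astral microtubules, had the largest log2 fold change of the list, 1.32 (SE 0.41), without being called (adjusted p by edgeR = 0.0911). It was named after its values were seen.

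DNA replication precedes mitosis, and its genes are the nearest comparison. Of 41 genes of S phase, all 41 tested, 31 had log2 fold changes above 0, against 49.1% of all tested genes, and the median was 0.11. Of the list 3 were called, all higher (7.32%, against 1.74% of all tested genes called higher). Every C75S library lay above every WT library for 11 genes, against 9.01% of all tested genes. The reverse held for 1, against 8.96%. The called genes were *Mcm3* and *Mcm6*, subunits of the replicative helicase, and *Uhrf1*, which guides maintenance of DNA methylation. *Uhrf1* was at 5.39, 5.17 and 4.28 CPM in the C75S libraries and 3.18, 3.21 and 2.76 CPM in the WT libraries, with no overlap, and rose with a log2 fold change of 0.69 (SE 0.19, adjusted p by edgeR = 0.045). *Mcm6* was at 32.2, 25.2 and 24.5 CPM in the C75S libraries and 21.1, 19.9 and 22.1 CPM in the WT libraries, also without overlap, and rose with a log2 fold change of 0.37 (SE 0.10, adjusted p by edgeR = 0.0317). For *Mcm3* the log2 fold change was 0.62 (SE 0.15, adjusted p by edgeR = 0.0188). The summed level of the S-phase list was 443, 425 and 399.7 CPM in the C75S libraries and 389, 375 and 391 CPM in the WT libraries, so C75S replicate 3 was again the nearest to WT. The difference between lists was not tested.

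Markers of other liver cells were read from set lists. Cholangiocyte markers were higher in the same libraries as the members. Of 12 listed, 7 were tested, 5 of these had log2 fold changes above 0 and *Krt19* was called, at 10.6, 8.2 and 9.73 CPM in the C75S libraries and 5.5, 5.7 and 5.19 CPM in the WT libraries. The list summed to 315, 267 and 248 CPM in the C75S libraries and 215, 216 and 206 CPM in the WT libraries, in the same order of C75S libraries as the members' sum of 309, 283 and 239.8 CPM (WT 222, 222 and 229). *Spp1* and *Cldn4* made up most of it, *Cftr* was at 0 in every library, and *Sctr* was under 3 counts in each. Their part in the members' difference was not tested.

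The other marker lists did not follow that order of the C75S libraries. Endothelial markers summed to 65.1 to 85.9 CPM in C75S and 84.6 to 111 CPM in WT, with 9 of 12 tested and 0 called. Of these 9, 7 had log2 fold changes above 0 although the sum was lower in C75S. The largest part of that sum was *Flt1*, at a mean of 36.9 CPM in C75S and 61.9 in WT (log2 fold change -0.75, not called). Stellate cell and fibroblast markers summed to 74.1 to 91.3 CPM in C75S and 86.9 to 110 CPM in WT. Most of this sum was *Reln*, at a mean of 58.7 CPM in C75S and 75.1 in WT (log2 fold change -0.36, not called). Of the 14, 7 were tested and 4 of these were above 0. *Acta2*, smooth muscle actin, was called, at 4.99, 4.46 and 4.49 CPM in the C75S libraries and 3.23, 2.34 and 2.28 CPM in the WT libraries. Macrophage markers summed to 97.1 to 141 CPM in C75S and 104 to 135 CPM in WT, nearly all of it *Cd68*. Of the 12, 2 were tested, *Cd68* and *Csf1r*, and 0 were called. *Csf1r* was at 0.664 to 1.44 CPM in C75S and 0.633 to 1.14 in WT. Among those not tested, *Marco* was at 0.284 to 0.344 CPM in C75S and 0 to 0.097 in WT. *C1qa* was at 0.107 to 0.287 CPM in C75S and 0.242 to 0.876 in WT. *Adgre1*, *Clec4f* and *Lyz2* were at 0.29 CPM or less in every library. Of 12 leukocyte markers 9 were at 0 in all libraries, and the list reached at most 0.711 CPM. Mitochondrial transcripts made up 6.70% to 6.84% of counts in C75S and 6.41% to 6.85% in WT. Hepatocyte markers were lowest in sum in C75S replicate 1, the library with the highest members' sum. Most of that sum was *Alb*. It was at 55588, 59653 and 66412 CPM in the C75S libraries and 63038, 70003 and 68201 CPM in the WT libraries. All 12 were tested, with 6 log2 fold changes above 0 and 6 below. The 2 called, *Cyp2e1* and *Fgb*, were both higher in C75S (16.7%, against 1.74% of all tested genes called higher).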

How the data were processed

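Gene-level RNA sequencing counts were available for 6 hepatocyte libraries, 3 per genotype, grouped and numbered by their titles. The authors deposited raw read counts for each Ensembl gene identifier, unstranded and by strand, in the layout of STAR. Trim Galore 0.6.6, STAR 2.7.9a, edgeR 3.36.0 and the builds mm10 and GRCm38 are named in the submitters' processing notes; the annotation release is not given in the sources used here. The reverse-strand column was used, with 33.3 times the counts of the forward column; 4 summary rows were left out (multimapping reads were 17.98% to 18.5% of reads in each file). Identifiers were named and placed with GENCODE M21 (GRCm38), which held 55227 of 55487.

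Genes passing filterByExpr (minimum count 10, minimum total 15; 12741 genes) were scaled with TMM and tested with edgeR 4.0.16 in R 4.3.3 by a robust quasi-likelihood fit with genotype as the single term, two-sided, with Benjamini-Hochberg adjustment and a threshold of 0.05. SE is the log2 fold change divided by the root of F. CPM uses TMM-scaled library sizes. CPM per kb divides by merged exon length. The procedure was tested on simulated data with known changes. False calls made up 10.1%, 11.4% and 8.15% of calls at simulated folds of 1.3, 1.5 and 2. Each share is larger than the threshold of 0.05. DESeq2 1.42.0, limma-voom (limma 3.58.1), other scalings and filters, unstranded counts, a replicate block and leaving out each library were alternatives. Copies were sought with blastn 2.17.0 (95% identity over 200 bases).

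Members and lists were chosen with earlier results of these data known. Values by library are given for called members, members with an unadjusted p-value under 0.05, and in each of 8 role groups the most and least abundant per length and the largest log2 fold change; called genes of the other lists are named. No batch is given in the labels.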

Additional observations from a re-analysis of the deposited data

How the results depend on the processing

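The member median of 0.446 kept its sign in all 15 alternatives, from 0.323 to 0.614 when single libraries were dropped. The count of 5 called members was 2 under DESeq2 and 2 under limma-voom, and 0 to 9 when a library was left out; the cause was not tested, beyond the smaller number of libraries. The 396 genes called over all genes became 201 to 355 when a library was left out. Without the filter 573 genes were called, 290 higher and 283 lower, against 222 and 174. Same-numbered libraries did not deviate together (correlations 0.017, -0.04 and 0.025 for numbers 1, 2 and 3), so the numbers were not taken as pairs; with the replicate block 480 genes and 6 members were called, the member median was 0.443, and the sixth member was *Kif20a* (edgeR adjusted p = 0.0493). The 19 members with an unadjusted p-value under 0.05 kept their direction in all 15 alternatives; among these log2 fold changes 254 stayed on the same side of the threshold, 23 lost a call and 8 gained one. Depth was lowest for the 10 tested members with under 50 counts in every library, and 0 of these were called; power by count level was not tested.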

Other observations

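Promoter letters were set beside the fold changes of the tested genes. Whether the CHR or the CCAAT box has a part in the genotype difference was not tested. Among tested genes outside the 43 members, 552 had both, and their median log2 fold change was -0.003, with 10 called higher and 4 called lower (2.54% called). Over all 9679 tested genes with a window the median was -0.001 and 3.04% were called. Among the 35 tested members with a window, the 30 with CHR letters had a median log2 fold change of 0.46 and the 5 without, *Birc5*, *Cenpe*, *Mad2l1*, *Nuf2* and *Nusap1*, had 0.42. All 4 called members with a window held CHR letters. These are descriptions of letters in a fixed window, with no test.

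Counts on the opposite strand were examined as data not used above. At the members they came to 263 to 314 counts in C75S and 296 to 377 in WT, or 454 to 521 and 481 to 599 per 1000000 forward-strand counts. The genotypes overlapped on both scales. Several members share exon sequence with a gene on the opposite strand, such as *Cdc20* with *Elovl1*, *Kif4* with *Pdzd11* and *Ccna2* with *Exosc9*. With unstranded counts the same 5 members were called, and the median log2 fold change was 0.414.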
